A study of Drosophila melanogaster with 8 samples.

Results

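RasV12 scrib tumour discs in which the Jun N-terminal kinase (JNK) was blocked were compared with early RasV12 scrib tumour discs of Drosophila melanogaster, 1 library against 1, or 2 of the 8 samples in the study. The secreted signals, matrix genes and stress-induced transcription factor genes that stand high in the tumour were low in the JNK-blocked library, at levels near those of eye-antennal discs without a tumour. Genes that respond to ecdysone, the moulting hormone, small heat shock genes and markers of fat body and neurons were higher in the JNK-blocked than in the early tumour library, though neuron markers and the heat shock median were lower than in the late tumour. Hippo, cell cycle, polarity and retinal determination genes differed little between the libraries.

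JNK is a stress kinase at the end of a relay that starts at receptors for the TNF ligand Eiger and passes through a chain of upstream kinases. The fly kinase Basket (bsk) then phosphorylates Jun and acts with Fos, the AP-1 factor pair encoded by Jra and kay, and AP-1 switches on puckered (puc), a phosphatase that dampens the kinase. In eye discs the pathway is known for wound closure and removal of polarity-deficient cells, and in RasV12 scrib clones for invasion through the matrix metalloprotease Mmp1.

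Both libraries came from total RNA of dissected eye-antennal discs, pooled per genotype from many wandering larvae of the third instar. The discs were mosaic: an eyeless-driven FLP recombinase made clones that lost the tub-GAL80 repressor on an FRT82 chromosome marked with e, so that act>y+>Gal4 drove UAS-GFP and the other transgenes in them. Clones of both genotypes expressed UAS-Ras[V12], the always-active GTPase, and were homozygous for a scrib allele, whose label breaks off after scrib[2. The JNK-blocked genotype carried in addition UAS-BSK[DN], a dominant-negative Basket, written opposite the y,w,eyflp chromosome. By the labels the JNK-blocked discs were taken at 6 days after egg laying and the early tumour at 7 days, and the late tumour, of the same genotype as the early one, at 11 days.

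The other libraries give levels in the results below, and the late tumour, RasV12, BskDN and control also enter a pair of further comparisons. The control (5 days) had the same mosaic system with no transgene other than GFP and no scrib mutation, RasV12 (5 days) had UAS-Ras[V12] in addition, BskDN (11 days) had UAS-Bsk[DN] and no scrib mutation, and scrib BskDN (6 days) had UAS-Bsk[DN] with the scrib chromosome. The scrib wing library (6 days, scrib[2]/scrib[1]) is labelled as wing discs of mutant larvae without clones. Clone cells and their neighbours were not separated, so that fewer cells of a type and less RNA per cell cannot be told apart in any value below. The larvae that reached the wandering stage at 6 and 7 days may not have been at an equal stage, which the labels do not settle.

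The count table assigned 21027972 counts to genes in the JNK-blocked library and 20566656 in the early tumour, within a range of 17152279 to 21027972 over the 8 libraries. Levels are in normalized CPM, a gene's counts scaled to a common library size, and folds of single genes are ratios of normalized CPM with exact 95% intervals that cover counting error alone. There was 1 library a side, so replicate error is unknown and differences carry no p-value. Short transcripts were lower in the early tumour: among genes with a mean of at least 20 CPM, the median log2 fold of JNK-blocked over early tumour was 0.81 in 114 genes with transcripts of up to 600 bases, 0.33 in 482 genes of 600 to 1000 bases, and between -0.06 and 0.02 in longer ones. Against control the same classes of up to 600 and 600 to 1000 bases had medians of -0.76 and -0.31 in the early tumour and of 0.03 and 0.03 in the JNK-blocked library. Reads aligned to several places made up 23.1% of counted and tallied reads in the JNK-blocked library and 16.2% in the early tumour.

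The genes that the genotypes act on were looked at first. RNA of bsk (FBgn0000229, 2L:10247502-10250501) stood at 1891 CPM in JNK-blocked tumour, 92.6 in early tumour, 96.0 in late tumour, 109 in RasV12, 99.0 in control, 749 in BskDN, 1607 in scrib BskDN and 92.4 in scrib wing. The 3 libraries with the BskDN transgene were the only high ones, and the JNK-blocked tumour was 20.4-fold above the early tumour (19.5 to 21.4). Ras85D (FBgn0003205, 3R:9510561-9513067) was at 464 CPM in RasV12, 426 in JNK-blocked tumour, 655 in early tumour and 1181 in late tumour, against 252 to 284 CPM in the 4 libraries without RasV12. It was 1.54-fold lower in the JNK-blocked tumour than in the early tumour (1.497 to 1.58), and RNA of the transgene and of the native gene cannot be told apart. RNA of scrib was at 420 and 473 CPM, which does not check the mutation, since a mutant allele need not lower its RNA. Of eye disc markers, ey was at 82.5 CPM with JNK blocked, 147 in early tumour and 27.2 in scrib wing, so both libraries stood above the wing library. Of antennal markers, al was at 66.3, 13.9 and 24.2 CPM in that order, and Dll at 59.9, 44.5 and 75.3 CPM. Dll was below the wing library in both and al in the early tumour, so these antennal markers do not identify the labelled tissue.

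Genes were considered when they reached 1 CPM in at least 1 library, 10029 of the 15348 in the table. A gene was called when the libraries were at least 4-fold apart on a log2 scale with a prior count of 2, and the higher one had at least 5 CPM. By this rule 241 genes, 2.40% of those considered, were called higher in the JNK-blocked tumour and 156, or 1.56%, were called lower. With the late tumour in place of the early one 160 were higher and 371 lower, and 113 and 106 genes were called against both tumour libraries. The lists below are counted past 2-fold on the same scale, with no minimum level, which 12.7% of all considered genes passed upwards and 7.67% downwards. The median log2 fold over all considered genes was 0.03.

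**Figure D1:**
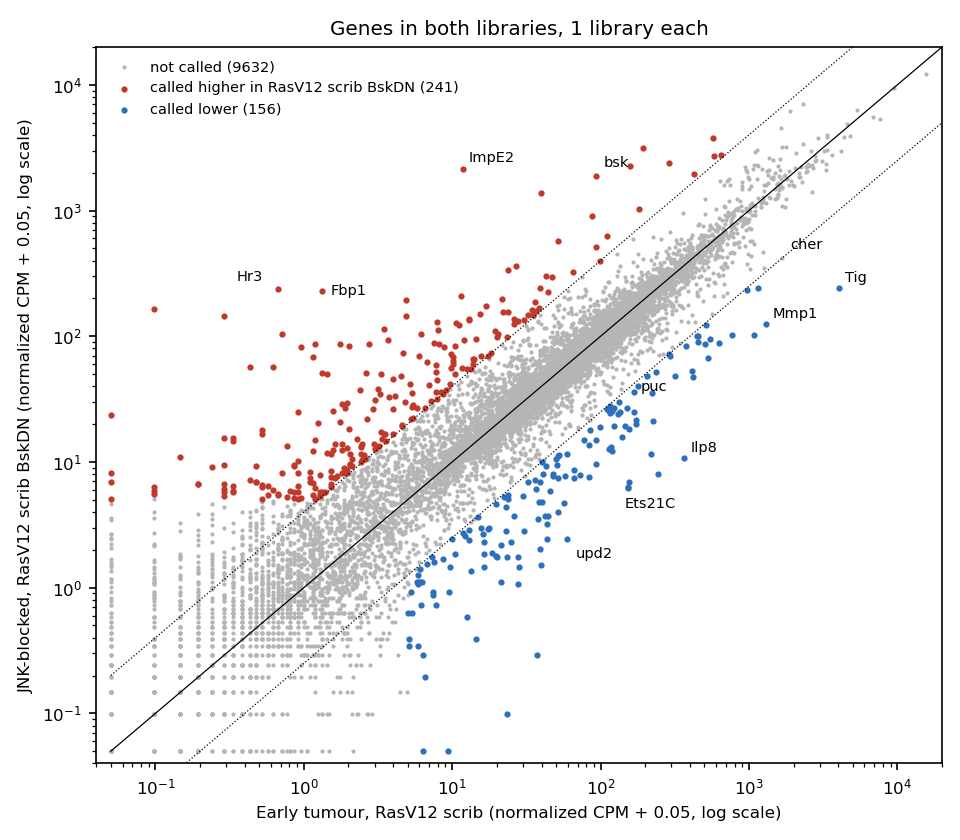
Level of each of the 10029 considered genes in the early tumour (x axis) and in the JNK-blocked tumour (y axis), in normalized CPM plus 0.05 on log scales, 1 point a gene and 1 library an axis. The solid line marks equal levels and the dotted lines 4-fold. The 241 genes called higher are red, and the 156 called lower, among them Ilp8, Ets21C, upd2, Mmp1 and Tig, are blue.

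Of the 156 genes called lower, 124 (79.5%) stood higher in the early tumour than in each of control, RasV12, BskDN and scrib BskDN, the 4 eye-antennal libraries that do not combine RasV12 with scrib loss, beside 24.8% of all considered genes. The level in the JNK-blocked tumour lay within the range of those 4 libraries for 104 of them (66.7%), below it for 40 (25.6%) and above it for 12 (7.69%). Of all considered genes, 70.0% lay within it, 14.0% below and 16.1% above, so a place within the range was not particular to the called genes. Of the 241 called higher, 178 (73.9%) were lower in the early tumour than in each of those 4 libraries, beside 22.8% of all genes. The JNK-blocked tumour was within their range for 178 as well, beside 70.0% of all genes, and above it for 60 (24.9%), beside 16.1%. These positions share the early tumour library with the calls and are a description.

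Secreted signals of the tumour were lower with JNK blocked. Ilp8 (FBgn0036690, 3L:17029812-17032080), a relaxin-like hormone that delays metamorphosis when discs are damaged, was at 10.6 CPM in JNK-blocked tumour, 364 in early tumour, 566 in late tumour, 16.8 in RasV12, 2.09 in control, 0.795 in BskDN, 3.36 in scrib BskDN and 110 in scrib wing. The JNK-blocked tumour was 34.4-fold below the early tumour (30.0 to 39.5) and also below RasV12 alone. The 3 cytokines that activate JAK/STAT signalling, named for unpaired, were lower as well.

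The cytokine gene upd2 (X:18240654-18243284) was at 2.37 CPM in JNK-blocked tumour, 59.8 in early tumour, 55.3 in late tumour, 0.745 in RasV12, 0.913 in control, 0.583 in BskDN, 1.89 in scrib BskDN and 45.3 in scrib wing, a difference of 25.2-fold between JNK-blocked and early tumour (18.9 to 34.2). Its neighbour upd3 (X:18277233-18284596) was at 2.37, 43.4, 55.6, 2.19, 0.967, 0.477, 2.41 and 25.1 CPM in the same order of libraries, or 18.3-fold lower (13.7 to 24.9). For upd1 (X:18305354-18309291) the values were 7.85, 72.7, 62.7, 6.16, 4.51, 3.81, 3.27 and 51.5 CPM, or 9.27-fold lower (7.88 to 11.0). For all 3 genes the JNK-blocked tumour sat near the eye-antennal libraries that carry no tumour, and the 3 libraries with scrib loss and intact bsk stood far above.

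The ligands of the PDGF/VEGF receptor were lower as well, by less. Pvf1, which also stands in the JNK target list, was at 20.1 CPM in the JNK-blocked and 61.4 in the early tumour (3.05-fold lower, 2.73 to 3.42), Pvf2 at 35.5 and 114 CPM (3.22-fold, 2.96 to 3.50) and Pvf3 at 10.4 and 28.3 CPM (2.72-fold, 2.32 to 3.20). Their receptor gene Pvr was at 235 and 218 CPM, and the median of the 4 genes was -1.52. The EGF ligand gene vn, at 23.9 and 39.7 CPM, and the TGF-beta ligand gene dpp, at 79.2 and 113 CPM, were within 2-fold.

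Among genes of the relay and its feedback only the kinase gene and the phosphatase gene differed by 2-fold. RNA of the kinase gene was high only in the libraries that carry the BskDN transgene. Of the 23 considered genes of the JNK pathway list, out of 25 entries, bsk was higher and puc lower, and the list median was -0.11. The TNF ligand gene egr was at 32.0 and 33.0 CPM, its receptors grnd and wgn at 102 and 157 CPM and at 42.9 and 22.2 CPM, and the kinase gene Tak1 at 74.1 and 80.3 CPM. The JNK kinase gene hep was at 125 and 114 CPM. The AP-1 gene kay was 1.71-fold lower (1.63 to 1.80), at 121 against 208 CPM, and Jra 1.38-fold lower (1.30 to 1.47), at 82.8 against 114 CPM.

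The feedback gene puc (FBgn0243512, 3R:8105332-8122294), a standard readout of JNK activity, was at 49.6 CPM in JNK-blocked tumour, 153 in early tumour, 166 in late tumour, 54.6 in RasV12, 46.4 in control, 41.4 in BskDN, 116 in scrib BskDN and 208 in scrib wing. It was 3.07-fold lower in the JNK-blocked than in the early tumour (2.86 to 3.30), close to its level in control. The scrib BskDN library, in which the kinase is blocked as well, was above it.

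Genes known as targets of JNK were lower as a group. Of 23 considered genes in this list, out of 26 entries, 14 were at least 2-fold lower, 8 of them called, and 1 was higher, with a median log2 fold of -1.61. Besides the signals above and puc, the members past 2-fold were Mmp1, scaf, cher, Ets21C, Atf3, mol, p53 and the cell death gene rpr, which was at 9.88 and 25.5 CPM. The members within 2-fold included the second matrix metalloprotease gene Mmp2, at 439 and 411 CPM, the profilin gene chic, at 1914 and 1759 CPM, and the integrin beta gene mys, which was 1.82-fold lower (1.77 to 1.87). Tep1, a complement-like protein gene, went the other way and was 7.80-fold higher (6.84 to 8.93), at 93.2 against 12.0 CPM, with 159 CPM in control. Members of this list were chosen with results of these libraries known, so that its median is not separate evidence of a direction.

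Among genes for the matrix and cell shape, Mmp1 (FBgn0035049, 2R:24671294-24688184), which cleaves basement membrane, was at 125 CPM in JNK-blocked tumour, 1309 in early tumour, 1282 in late tumour, 102 in RasV12, 68.6 in control, 109 in BskDN, 166 in scrib BskDN and 1118 in scrib wing. It was 10.5-fold lower in the JNK-blocked than in the early tumour (10.1 to 10.9), between BskDN and scrib BskDN. Tig (FBgn0011722, 2L:6415179-6423310), an integrin ligand of the extracellular matrix, was at 240, 4051, 2977, 138, 193, 117, 70.3 and 1699 CPM in that order of libraries, 16.9-fold lower (16.4 to 17.4) and above the 4 eye-antennal libraries without the tumour genotype. The filamin gene cher was 3.97-fold lower (3.88 to 4.06), at 422 against 1675 CPM, just short of the call, and scaf, a serine protease homologue of epithelial closure, 5.72-fold lower (5.45 to 6.00).

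The matrix list was divided. In it, out of 14 considered members, Tig, the fasciclin-like gene mfas (244 and 1153 CPM) and Ndg, for nidogen (1.07 and 4.90 CPM), were at least 2-fold lower and fat-spondin was higher (188 and 36.3 CPM), with a median of -0.10. The laminin gene LanA was 1.26-fold higher (1.24 to 1.29), with 791 CPM in the early tumour. In the integrin and cytoskeleton list 4 of 20 members were lower and none higher (median -0.48). The integrin alpha gene if was among them, at 93.4 and 259 CPM (2.77-fold, 2.63 to 2.92).

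The transcription factor genes of the tumour differed to unequal degrees. Ets21C (FBgn0005660, 2L:544925-552923), an Ets factor induced by stress, was at 6.20 CPM in JNK-blocked tumour, 154 in early tumour, 204 in late tumour, 8.04 in RasV12, 1.83 in control, 3.13 in BskDN, 15.01 in scrib BskDN and 64.2 in scrib wing. The JNK-blocked tumour was 24.8-fold below the early one (20.8 to 29.8) and below both RasV12 and scrib BskDN. The zinc finger factor gene chinmo (2L:1651258-1704682), which keeps larval cells immature, was at 47.1, 421, 361, 59.0, 62.1, 22.9, 96.1 and 151 CPM in the same order, or 8.94-fold lower (8.37 to 9.57).

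The nuclear receptor gene ftz-f1 was 6.44-fold lower (5.79 to 7.18), at 19.2 against 124 CPM, and the bZIP factor gene Atf3 3.14-fold lower (2.83 to 3.48), at 23.7 against 74.5 CPM. Stat92E, which codes for the factor of the JAK/STAT pathway, was at 229 and 299 CPM, and Myc at 236 and 465 CPM (1.97-fold, 1.90 to 2.04). The Hippo effector yki was at 67.1 and 72.8 CPM and its partner sd at 333 and 367 CPM. Of the stress factor list 8 of 22 members were at least 2-fold lower and none higher (median -0.51), and these include Ets21C, chinmo, Atf3 and p53, which also stand in the lists of JNK targets or JAK/STAT.

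Some feedback and target genes of JAK/STAT went with the cytokines. Socs36E, the inhibitor that the pathway induces, was at 81.9 CPM in JNK-blocked tumour, 303 in early tumour, 350 in late tumour, 78.3 in RasV12, 58.8 in control, 67.3 in BskDN, 94.7 in scrib BskDN and 263 in scrib wing, or 3.70-fold lower (3.51 to 3.91). The factor genes apt and ken, both regulators of this pathway, were 4.44-fold (4.12 to 4.79) and 2.75-fold lower (2.50 to 3.03). The receptor gene dome was 1.58-fold lower (1.52 to 1.65), while the kinase gene hop was at 104 and 85.2 CPM. Of 17 considered members, out of 19 entries, 7 were at least 2-fold lower and 2 higher, with a median of -0.66. The lower ones were upd1, upd2, upd3, Socs36E, chinmo, apt and ken, so this count and median take in the cytokines themselves. The higher ones were zfh1 (2.16-fold, 2.00 to 2.35) and the stress peptide gene TotA. TotA, at 1.45 CPM with JNK blocked and 0 counts in early tumour, was at least 10.2-fold above 3 counts.

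**Figure D2:**
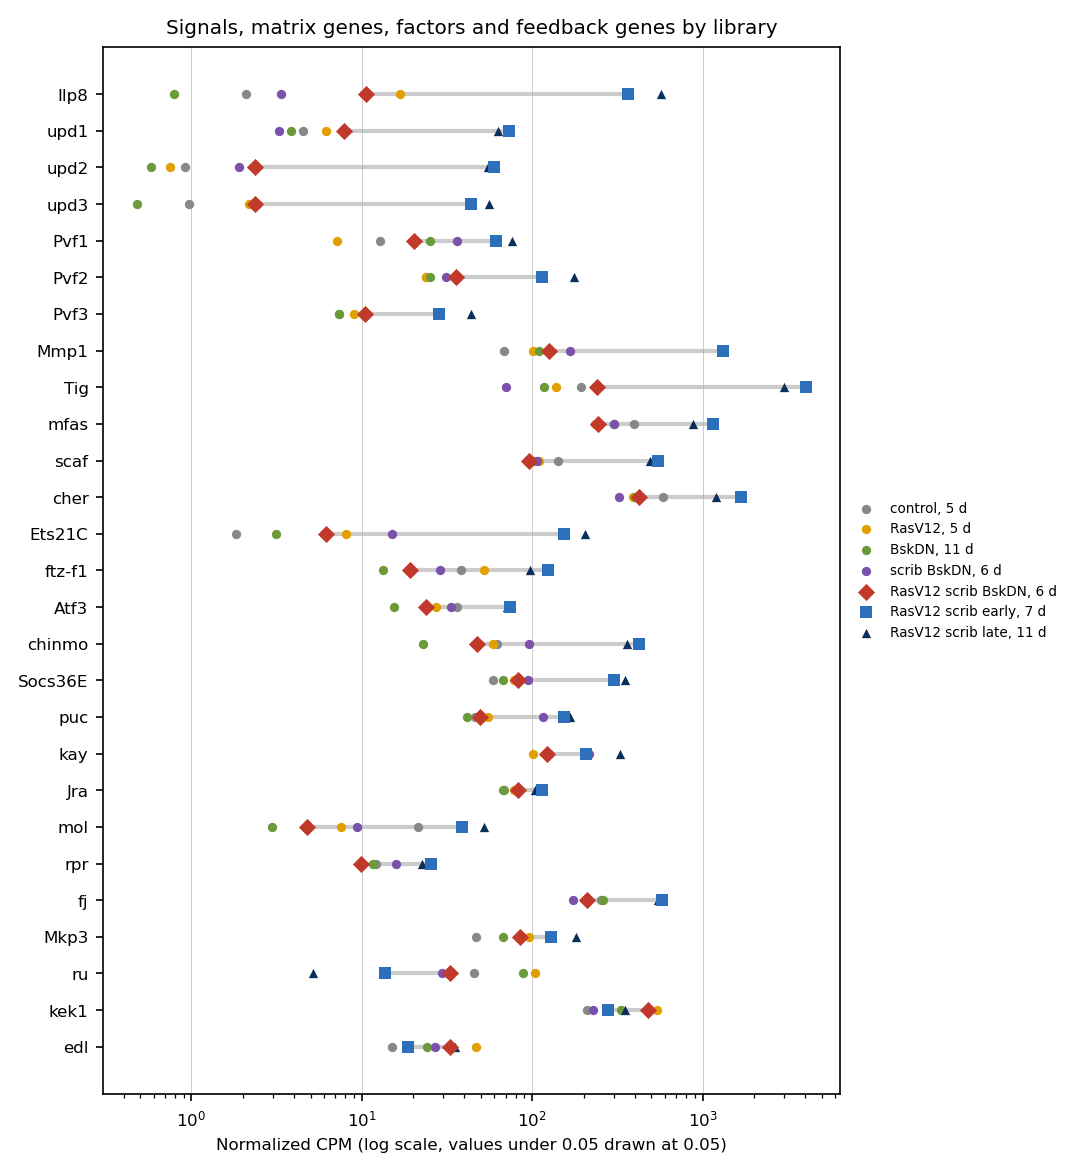
Level of 27 genes for signals, matrix, factors and feedback in the 7 eye-antennal libraries, in normalized CPM on a log scale, 1 marker a library with no replicate. The grey bar joins the JNK-blocked tumour (red diamond) to the early tumour (blue square). From Ilp8 to upd3 the red diamond lies with the libraries without a tumour, while ru, kek1 and edl run the other way.

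Growth and Ras readouts differed less. In the Hippo list, of 25 members, only fj, for a Golgi kinase that acts on the cadherin Fat, was past 2-fold, at 210 against 579 CPM (2.75-fold lower, 2.66 to 2.85), and the median was -0.12. The death inhibitor gene Diap1, a Yorkie target, was 1.73-fold higher (1.67 to 1.78). In the Ras/MAPK list 1 of 23 members was past 2-fold, the EGF-processing protease gene ru, 2.40-fold higher (2.09 to 2.77), and the median was 0.18. The induced phosphatase gene Mkp3 was at 84.3 and 129 CPM, and the EGFR inhibitor gene kek1 at 475 and 278 CPM. None of the 29 cell cycle members (median -0.13), of 18 polarity and adhesion members (-0.15), of 22 Dpp, Wg and Hh members (-0.01) or of 13 retinal determination members (-0.12) was past 2-fold either way.

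In metabolism and growth control, the lactate dehydrogenase gene Ldh was 7.84-fold lower (7.36 to 8.36), at 52.5 CPM against 411 in the early and 2229 in the late tumour, with 119 CPM in control. It was the only one of 13 glycolysis members past 2-fold (median 0.08). The translation inhibitor gene Thor was 4.76-fold lower (4.32 to 5.25), at 24.4 against 116 CPM, the only one of 12 insulin and growth members past 2-fold (median -0.18). In the redox list 5 of 16 members were lower and 2 higher (median -0.28). The lower ones included mol, an oxidase maturation gene (4.79 and 38.7 CPM), and the glutathione transferase gene GstE1 (23.7 and 85.6 CPM). The higher ones were catalase (Cat, 390 and 166 CPM) and superoxide dismutase (Sod1, 361 and 136 CPM). With folds centred on genes of like transcript length 5 redox members were lower and 1 higher.

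**Figure D3:**
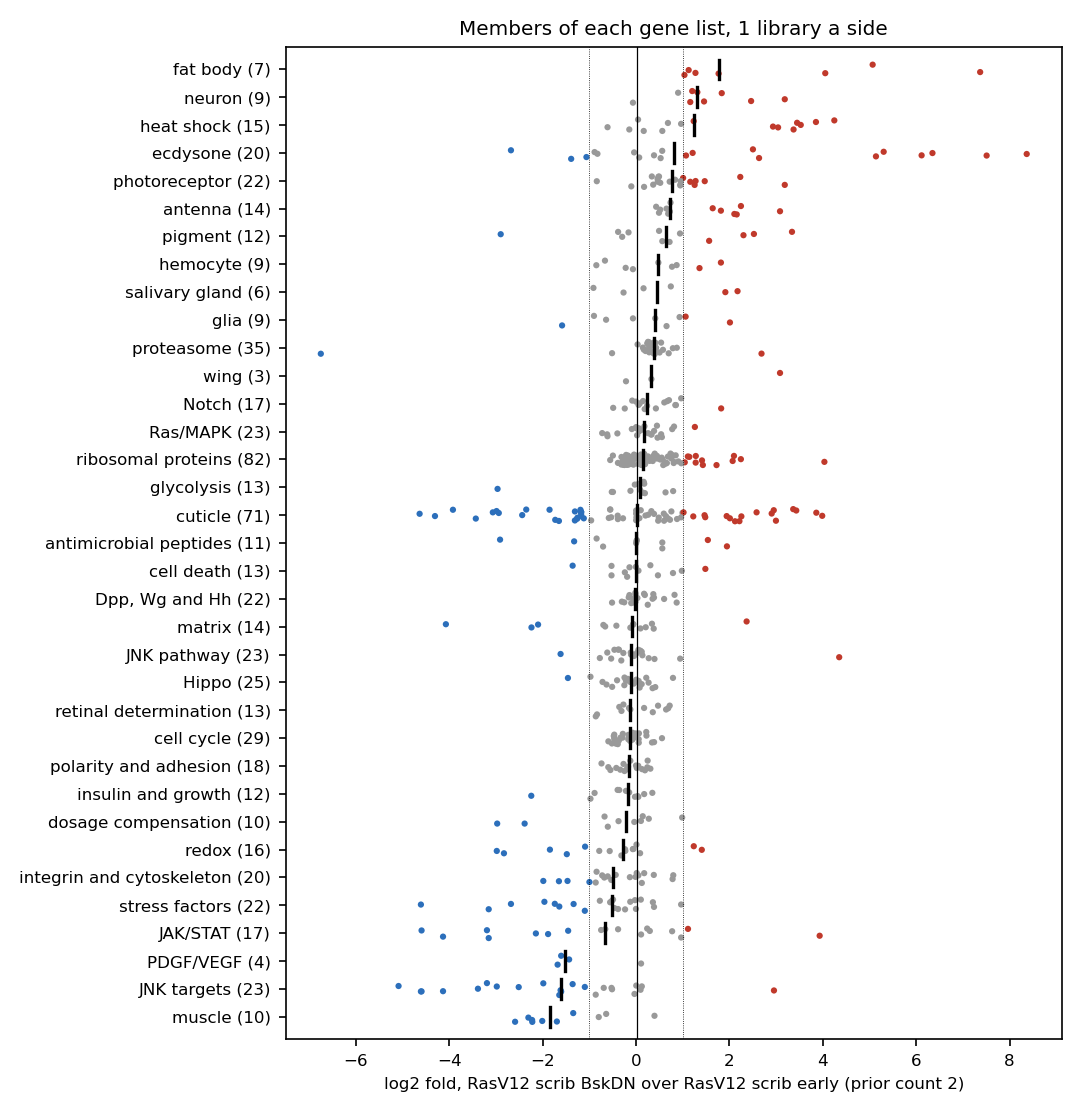
Log2 fold of each considered list member, JNK-blocked over early tumour, with 1 row a list and the number of members in brackets (lists with at least 3). Black bars are list medians, the solid line is the median of all considered genes (0.03), dotted lines mark 2-fold, and members past them are blue (lower) or red (higher). Muscle markers have the lowest median (-1.85), JNK targets and PDGF/VEGF genes also lie low, and fat body, neuron, heat shock and ecdysone members high.

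Genes of the ecdysone response made up much of the top of the higher genes. Ecdysone pulses time the end of larval life, and early and late response genes follow each other within hours. Hr3 (FBgn0000448, 2R:10203995-10237348), a nuclear receptor that the hormone induces, was at 238 CPM in JNK-blocked tumour, 0.619 in early tumour, 3.24 in late tumour, 30.9 in RasV12, 91.5 in control, 234 in BskDN, 234 in scrib BskDN and 14.8 in scrib wing. The JNK-blocked tumour was 384-fold above the early tumour (225 to 722) and level with the other 2 libraries that carry BskDN.

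ImpE2 (3L:3510974-3512681), an ecdysone-induced gene of disc eversion, was at 2151, 11.7, 118, 2060, 1926, 5872, 2500 and 482 CPM in that order of libraries, or 184-fold higher (162 to 209). ImpL1 was 90.5-fold (57.8 to 151), Eip78C 75.4-fold (50.5 to 118), ImpE3 40.3-fold (33.1 to 49.6) and ImpE1 35.3-fold higher (32.9 to 37.9). Blimp-1, a repressor of the same cascade, was at 105 against 0.667 CPM (157-fold, 93.5 to 288). Both tumour libraries with intact JNK were below all others for Hr3 and Blimp-1.

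Of the 20 considered members of the ecdysone list, out of 23 entries, 10 were at least 2-fold higher, 8 of them called, and 3 lower, with a median of 0.81. The lower ones were ftz-f1, the hormone-degrading enzyme gene Cyp18a1 (2.63-fold, 2.31 to 3.01) and the hormone-activating enzyme gene shd. Eip93F, a later response gene, was at 30.1 and 4.76 CPM but at 56.0 CPM in the late tumour. Age and JNK block differ together here, and hormone stage and the block cannot be told apart in this pair of libraries.

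Small heat shock genes, which ecdysone is also known to induce, were higher: Hsp23 was at 2265 against 157 CPM (14.4-fold, 13.9 to 14.97), Hsp27 at 2397 against 291 CPM (8.23-fold, 8.02 to 8.46) and Hsp26 at 568 against 51.9 CPM (10.9-fold, 10.3 to 11.6). In control Hsp23 and Hsp27 were at 2186 and 2034 CPM, so the early tumour was the low library. Of 15 considered heat shock members 8 were past 2-fold higher and none lower (median 1.23, but -0.46 against the late tumour, where Hsp26 was at 816 CPM), while Hsp83 was at 3026 and 3349 CPM. Copies of Hsp70 are near-identical and share reads, so single copies such as Hsp70Bc are uncertain.

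Markers of fat body, a storage tissue next to the discs, were all higher. Each of 7 was past 2-fold, with a median of 1.77 and a summed level of 492 CPM in the JNK-blocked and 58.7 CPM in the early tumour, with no marker at 0. Fbp1, a receptor for storage proteins that ecdysone also induces, was at 229 CPM in JNK-blocked tumour, 1.29 in early tumour, 9.18 in late tumour, 513 in RasV12, 94.8 in control, 3641 in BskDN, 239 in scrib BskDN and 27.0 in scrib wing, or 178-fold higher (122 to 271). The storage protein gene Lsp2 was 16.8-fold higher (14.1 to 20.3). Over the other libraries the sum ran from 177 to 5525 CPM, and how far carried-over tissue enters the values of other genes was not tested.

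**Figure D4:**
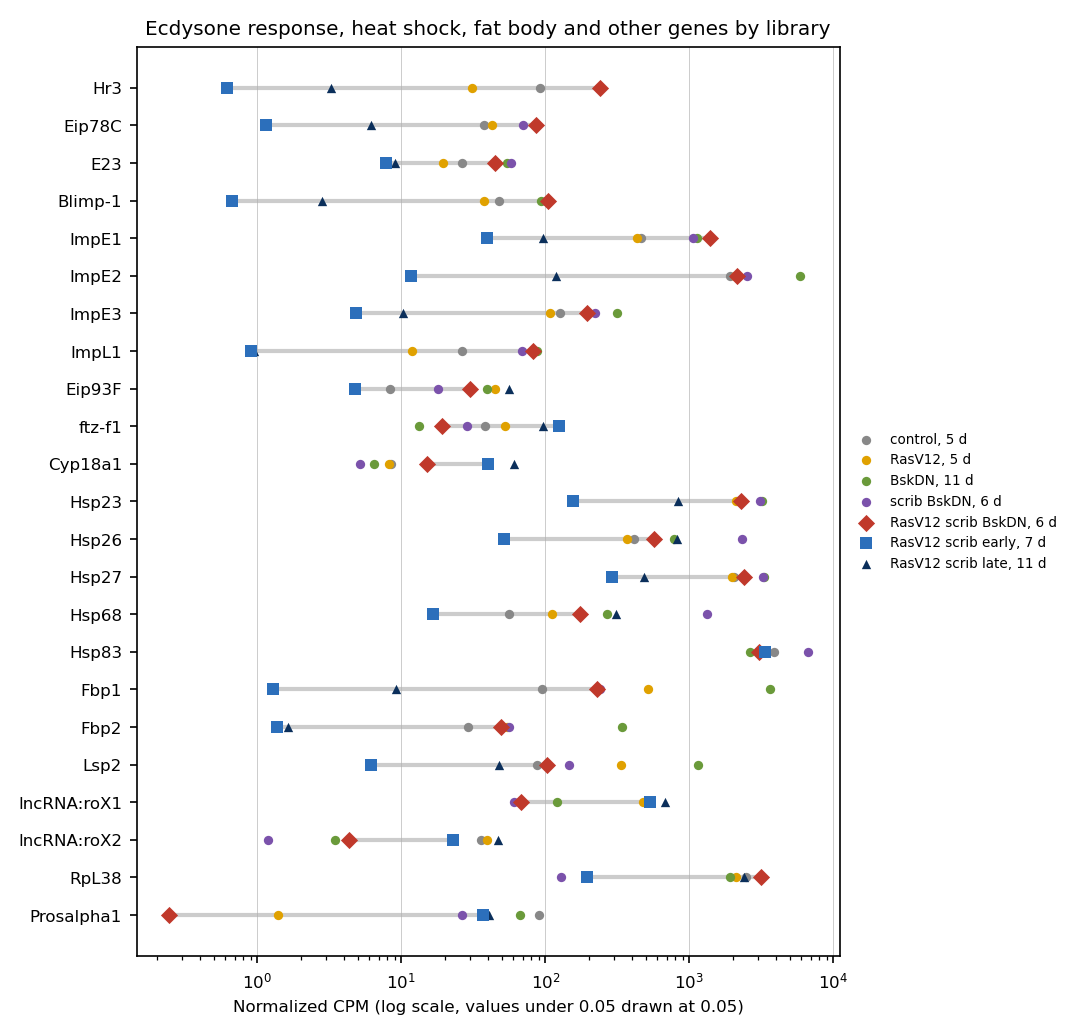
Level of ecdysone response, heat shock, fat body, dosage compensation and other genes in the 7 eye-antennal libraries, in normalized CPM on a log scale, 1 marker a library with no replicate. The grey bar joins the JNK-blocked tumour (red diamond) to the early tumour (blue square). For the ecdysone response genes from Hr3 to ImpL1 the blue square lies at the low end, and for roX1 and roX2 the red diamond lies low with the other BskDN libraries.

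Neural and photoreceptor genes were higher too. In the photoreceptor list 7 of 22 members were past 2-fold higher and none lower (median 0.78), and in the neuron list 7 of 9 were higher (median 1.31). The factor gene pros was at 163 CPM in JNK-blocked tumour, 34.6 in early tumour, 601 in late tumour, 26.7 in RasV12, 11.9 in control, 45.1 in BskDN, 304 in scrib BskDN and 37.9 in scrib wing, or 4.71-fold higher than in the early tumour (4.34 to 5.11). The RNA-binding protein gene fne was 9.21-fold higher (7.74 to 11.0), at 62.3 against 6.76 CPM, and elav, the marker of all neurons, 2.24-fold (2.11 to 2.37), at 171 against 76.6 CPM.

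These neural values did not separate tumour from non-tumour discs. Against the late tumour in place of the early one the neuron median was -1.29, since fne was at 152 CPM there. The vesicle transporter VGlut, which motor neurons use and fly photoreceptors do not, was at 13.9 and 2.43 CPM, and at 31.0 and 40.9 CPM in scrib BskDN and late tumour. The summed neuron level was 375 CPM in the JNK-blocked and 139 CPM in the early tumour, with a range of 101 to 727 CPM over the other 6 libraries, and no marker was at 0. Whether neural tissue that adheres to the discs takes part was not tested.

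Antennal patterning genes were on the same side: 6 of 14 were past 2-fold higher and none lower (median 0.73). The homeobox gene al was 4.77-fold higher (4.20 to 5.43) and bab2 4.46-fold (4.09 to 4.87), at 135 against 30.3 CPM. The summed level of the list was 751 CPM against 354 CPM, with 634 to 808 CPM in the 4 eye-antennal libraries without the tumour genotype and 387 CPM in the late tumour. Muscle markers were lower in 7 of 10 (median -1.85), with Mlc2 at 25.5 and 120 CPM, while control had 1306 CPM of it. The summed muscle level was 248 CPM in the JNK-blocked and 647 CPM in the early tumour, and 297 to 5418 CPM elsewhere. Hemocyte markers summed to 1299 and 1408 CPM, with 2 of 9 members past 2-fold higher, the factor gene srp and the phagocytosis receptor gene eater, and none lower. Glia markers summed to 601 and 774 CPM, and salivary gland glue genes to 11.0 and 9.86 CPM. Of 9 glia markers 2 were higher and 1 lower (median 0.41), and of 6 glue genes 2 were higher (median 0.45). The part of these tissues in the other differences was not tested.

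The 15 largest folds each way, among called and named genes with at least 20 CPM, added genes outside the lists. Highest were CG34296, at 164 CPM in the JNK-blocked and 0.0476 CPM, or 1 count, in the early tumour (3447-fold, 618 to 136176), and the serpin gene Spn100A, at 146 and 0.238 CPM (613-fold, 262 to 1888). NimC2, of a family of phagocytosis receptors, had 23.4 CPM and 0 counts, at least 164-fold above 3 counts. In BskDN these 3 genes were at 301, 213 and 53.1 CPM. The largest folds down were Muc11A, a mucin gene, at 0.0484 CPM (1 count) and 23.4 CPM (483-fold, 86.2 to 19107), and the proteasome subunit gene Prosalpha1, at 0.242 and 37.0 CPM (153-fold, 65.3 to 473). Prosalpha1 was also at 1.39 CPM in RasV12, against 26.2 to 90.2 CPM in the other 6 libraries, and it was the only one of 35 considered proteasome genes past 2-fold lower (list median 0.37). Its relative Prosalpha1R was at 5.76 and 0.810 CPM, and reads that related copies share leave both uncertain. Tdc1, a tyrosine decarboxylase gene, was at 6.83 and 157 CPM (22.9-fold, 19.4 to 27.3), with 133 CPM in the late tumour.

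The ribosomal protein genes had a median of 0.16, with 12 of 82 past 2-fold higher. RpL38 was at 3167 against 193 CPM, while scrib BskDN was as low, at 129 CPM, and the other libraries had 1923 to 3472 CPM. With folds centred on genes of like transcript length the ribosomal median was -0.06 and 6 were past 2-fold. Cuticle genes were split, 17 of 71 considered members past 2-fold higher and 22 lower (median 0.01). Antimicrobial peptide genes were near the floor in both libraries, summing to 1.74 and 3.00 CPM.

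The male-biased dosage compensation RNAs were low. lncRNA:roX1 was at 67.6 CPM in JNK-blocked tumour, 533 in early tumour, 680 in late tumour, 478 in RasV12, 502 in control, 120 in BskDN, 60.1 in scrib BskDN and 711 in scrib wing, 7.88-fold lower than in the early tumour (7.45 to 8.34). lncRNA:roX2 was 5.34-fold lower (4.25 to 6.77), at 4.31 against 23.001 CPM. Both were low in all 3 libraries with BskDN, whose labels place that transgene opposite the y,w,eyflp chromosome. Read as written, this puts the transgene on the other X chromosome, so the larvae of the BskDN libraries would carry 2 X chromosomes, as females do. The sex of the larvae is not given otherwise, and a difference in it cannot be told apart from the block. The 1578 considered genes of the X chromosome had a median log2 fold of 0.00, beside a median of 0.03 on chromosomes 2 and 3. Of these X genes 26 (1.65%) were called higher and 28 (1.77%) lower, beside 2.48% and 1.53% on chromosomes 2 and 3.

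A pair of comparisons with no library in common with this one was set beside it. In the late tumour over RasV12, 517 genes (5.16%) were called higher and 187 (1.86%) lower. Of the 517, 90 were called lower with JNK blocked, which is 17.4% of the 517 and 57.7% of the 156, and 23 were called higher. Of the 187, 60 were called higher with JNK blocked, 32.1% of the 187 and 24.9% of the 241, and 2 lower. Over the 10029 genes the log2 folds had a Pearson correlation of -0.21 and a Spearman correlation of -0.24, a description across genes, which are not independent replicates.

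Tumour genes were divided by this. Ilp8 had a log2 fold of 5.06 in late tumour over RasV12 and -5.09 here, upd2 of 6.03 and -4.60, Tig of 4.43 and -4.08, and Ldh of 5.65 and -2.97. The neural genes fne, with 4.52 and 3.18, and pros, with 4.49 and 2.23, were higher in both. Past 2-fold, 170 of the 517 were lower with JNK blocked and 185 higher, with a median of 0.33. Among the ecdysone genes Hr3 had -3.21 and 8.37, and ImpE2 -4.12 and 7.51.

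**Figure D5:**
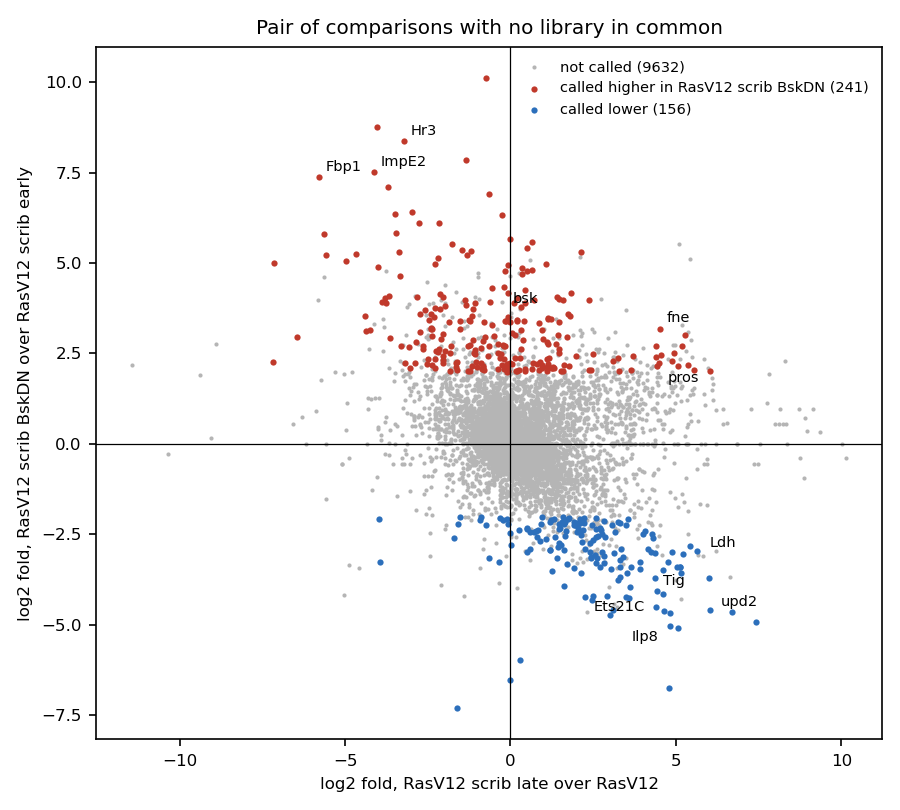
Log2 fold of the late tumour over RasV12 (x axis) and of the JNK-blocked over the early tumour (y axis) for the 10029 considered genes, 2 comparisons with no library in common and 1 library a side. Genes called in the latter are red (241 higher) or blue (156 lower). Ilp8, upd2, Tig and Ldh lie at the lower right, Hr3, ImpE2 and Fbp1 at the upper left, and fne and pros at the upper right.

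BskDN over control also shares no library with it and compares the block in discs without a tumour, at 11 and 5 days. There 69 genes (0.688%) were called higher and 329 (3.28%) lower. Of the 69, 19 were called higher in the tumour with JNK blocked (27.5% of the 69, 7.88% of the 241) and 1 lower, and of the 329, 44 were called lower (13.4% of the 329, 28.2% of the 156) and 5 higher. The Pearson correlation over all considered genes was 0.33 and the Spearman correlation 0.35. Muscle markers summed to 5418 CPM in control and 297 CPM in BskDN, and cuticle genes to 5523 and 1010 CPM. How far genes that stand high in control enter this overlap was not tested. Ecdysone genes were on the same side, with Hr3 at 1.36 and ImpE2 at 1.61 on the log2 scale against 8.37 and 7.51. The cytokine gene upd2 had -0.57 in BskDN over control beside -4.60 in the tumour. It was at 0.583 CPM in BskDN and 0.913 CPM in control, so the former value rests on few counts. Mmp1, with 0.67 beside -3.39, and Ets21C, with 0.74 beside -4.61, had opposite signs, and the difference between the comparisons was not tested.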

How the data were processed

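The authors deposited raw RNA-seq counts of all libraries in 1 table keyed by FlyBase identifier. The submitters' processing notes name TopHat2 and HTSeq. Their versions, the build, the annotation and the strand setting were not given in the sources, so overlapping and antisense genes are uncertain. The 5 tally rows were left out. A BDGP6 annotation, matched on the identifier, supplied coordinates and transcript lengths and named 14639 of 15348 genes (95.4%) and gave a length for 9571 of the 10029 considered.

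Counts were scaled with edgeR 4.0.16 (R 4.3.3) using TMM, a trimmed mean of M values, over all 8 libraries, with a prior count of 2 on the log2 scale. A call needs a 4-fold difference and 5 CPM or more in the higher library. Single folds are ratios of normalized CPM with exact conditional binomial (Clopper-Pearson) 95% intervals. The floor is 3 counts in a library (0.145 CPM in the JNK-blocked and 0.143 CPM in the early tumour). Intervals and floors compare libraries, not conditions, because each group has 1 library. They cover counting error only, and unmarked PCR copies make them too narrow.

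Of 532 list entries 489 were matched, and 3 further lists (cuticle, ribosomal proteins, proteasome) were taken by the start of the name. The 36 lists, the comparison and the rule for named genes were chosen with earlier results of these data known. Named are the perturbed genes, the 15 largest folds each way at 20 CPM or more, considered members of the JNK and JAK/STAT lists and the factors around them, and of other lists at most 6 examples and the members past 4-fold. The calling step was tested on simulated data with planted changes and counting error alone. That test does not cover variation between replicates.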

Additional observations from a re-analysis of the deposited data

Results flagged for a closer look

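The cuticle genes Lcp4, Lcp1 and Cpr49Ag differed in opposite directions where JNK was blocked in discs with and without a tumour. Lcp4 had a log2 fold of -3.41 in BskDN over control and of 3.43 in JNK-blocked over early tumour. Lcp1 had -2.59 and 3.36, and Cpr49Ag -8.33 and 2.99. The difference between the comparisons was not tested, since each side is 1 library. In control Lcp4 was at 1234 CPM, and in the JNK-blocked and early tumour at 8.18 and 0.667 CPM, so that the higher call in the tumour is between low levels. These genes are given here because their calls in the 2 comparisons have opposite signs.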

How the results depend on the processing

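Of 241 genes called higher and 156 called lower, the counts were 215 and 164 with relative log expression factors, 236 and 155 with upper quartile scaling, 214 and 169 with library totals, 241 and 156 with no filter, 250 and 161 with a prior count of 0.5, 224 and 150 with a prior count of 5, and 229 and 147 without marker, cuticle, glue and antimicrobial peptide genes. A call at 2-fold gave 687 and 421, one at 8-fold 109 and 61, and a minimum of 20 CPM 134 and 108. With the late tumour in place of the early one 160 were higher and 371 lower. Added after seeing the data, calls against both tumour libraries numbered 113 and 106, calls centred on genes of like transcript length 232 and 160, and calls without the X chromosome 215 and 128.

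With the late tumour 16 of 36 list medians changed sign, 14 of them under 1 in size on the log2 scale against the early tumour. The other 2 were the medians of the heat shock (-0.46) and neuron (-1.29) lists. Of the named genes called against the early tumour, those with the opposite sign were fne (-1.29), pros (-1.88), VGlut (-1.55), bab1 (-0.083), Eip93F (-0.89), Hsp67Bc (-0.31), Hsp70Bc (-1.09), Hsp68 (-0.82), Hsp26 (-0.52), e (-0.83), up (0.10), Mlc1 (0.24) and Tm2 (0.18). The cause was not tested. No paired analysis was possible because each group has 1 library and there are no replicate numbers to share. With 3 counts at 0.143 to 0.145 CPM, differences between genes near that level were not detectable at this depth.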

Other observations

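Some pigmentation enzymes stood higher in the JNK-blocked tumour. The tyrosine hydroxylase gene ple was at 99.3 against 20.1 CPM (4.94-fold, 4.45 to 5.50), b, for aspartate decarboxylase, at 30.8 against 2.95 CPM (10.4-fold, 8.03 to 13.8), and e at 6.78 against 1.10 CPM. The e gene is mutant in the marked chromosomes of both genotypes. In the pigment list 4 of 12 considered members passed 2-fold upwards and 1 downwards, the latter with a log2 fold of -2.90. The median log2 fold was 0.64. With the late tumour in place of the early one the list median was -0.18.

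In the Notch list 1 of 17 members was past 2-fold, E(spl)malpha-BFM, at 80.5 against 22.7 CPM (3.55-fold higher, 3.20 to 3.93), and the list median was 0.23. Of 13 cell death members rpr was lower and skl higher past 2-fold, at 2.71 against 0.905 CPM for skl, and the median was -0.01. Of the 3 considered wing patterning genes Antp was at 4.79 and 0.476 CPM, while vg was at 2.57 and 3.00 CPM and nub at 4.75 and 3.76 CPM. The tracheal gene trh was at 3.63 and 1.95 CPM.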
